A study of Mus musculus with 12 samples.

Results

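Haploid EpiSC-1, a line of mouse epiblast stem cells (EpiSCs) labelled as haploid, was compared with both diploid EpiSC lines of the study. Its members are the 3 arrays whose titles name that line, set against the 3 arrays of diploid EpiSC-1 and the 3 of diploid EpiSC-2, so that 9 of the 12 arrays entered. A gene was called only where it differed in the same direction from each diploid line, and haploid EpiSC-2 took no part. The haploid cells were labelled strain 129Sv and the diploid cells B6D2F1, and the labels give the arrays as biological replicates. All 3 lines grew under the same stated conditions, N2B27 medium with bFGF and Activin A, and total RNA was taken in Trizol after trypsin digestion. Ploidy, strain and the identity of a single haploid line cannot be told apart in this comparison. The labels name neither the parental origin of the haploid chromosome set nor feeder cells, nor whether the cells were sorted for ploidy before RNA was taken. Nothing states that the replicates came from separate derivations, so p-values measure the spread between arrays of a line.

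EpiSCs are pluripotent cells that correspond to the epiblast of the embryo after implantation. They depend on FGF and Activin signalling, grow as flat epithelial colonies, and express Oct4 (Pou5f1) together with primed markers such as Fgf5 and Otx2. Haploid stem cells carry a single set of chromosomes, tend to become diploid in culture, and hold imprinted genes from 1 parent only.

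Values are MAS5 signals of an Affymetrix array, a linear brightness per probe set. Differences are log2 signal in haploid EpiSC-1 minus log2 signal in a diploid line, against diploid EpiSC-1 first and diploid EpiSC-2 second, each from 3 arrays a group. The adjusted p beside a pair of differences is the larger of the 2, from limma with Benjamini-Hochberg adjustment over 11095 genes, and a gene was called where it lay under 0.05. In such bulk RNA, fewer cells of a type and less RNA per cell cannot be told apart. A signal near the filter level of 63.1 is close to the background, where a fold is uncertain in size.

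Of the 12 epiblast markers listed, all had a mean signal above the filter level in haploid EpiSC-1, but 9 were called lower than in both diploid lines and 1, Sox2, higher. Their summed signal was 38116 to 38524 in haploid EpiSC-1, 85988 to 89532 in diploid EpiSC-1 and 83001 to 85191 in diploid EpiSC-2. Pou5f1, Nanog, Tdgf1 and Dnmt3b remained far above the filter level although each was called lower, while Fgf5 and Otx2 stood just above it. Of 14 embryonic fibroblast (feeder) markers, all 14 were above the filter level in haploid EpiSC-1, 3 in diploid EpiSC-1 and 8 in diploid EpiSC-2. The summed fibroblast signal was 20513 to 20961 in haploid EpiSC-1 against 841 to 936 and 1259 to 1349. Of the 10 fibroblast markers tested, 8 were higher and 0 lower. Among these, Postn (34.6 and 40.4) and Col6a1 (45.3 and 45.6) had both diploid means below the filter level. They were tested through their signal in haploid EpiSC-1 alone. The stromal gene Thy1 was tested but not called, at 132 against 203 and 109, and so was the pericyte gene Cd248, at 217 against 25.3 and 132.7. The proteoglycan gene Lum, at 65.9 against 24.6 and 35.2, was below the filter. The 4 blood markers were below the filter level in every line.

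Log2 signals of the tested genes correlated at 0.990 to 0.991 among the 3 haploid EpiSC-1 arrays. They correlated with diploid EpiSC-1 at 0.863 to 0.868 and with diploid EpiSC-2 at 0.884 to 0.889, against 0.951 to 0.954 between the 2 diploid lines. For the actin control, the 3' signal over the 5' signal was 1.34 to 1.38 in haploid EpiSC-1 and 1.46 to 1.68 in the diploid arrays, and its part in the differences was not tested. The median signal of an array was 73.1 to 76.5 in haploid EpiSC-1 and 63.6 to 66.8 in the others.

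Of 11095 genes, 8031 (72.4%) differed from diploid EpiSC-1 and 7824 (70.5%) from diploid EpiSC-2, and 5836 (52.6%) differed from both in 1 direction. Of these, 2988 (26.9%) were higher in haploid EpiSC-1 than in both diploid lines and 2848 (25.7%) lower. Another 545 (4.91%) lay between the diploid lines, called against each with opposite signs. All 3 haploid arrays were above all 6 diploid arrays in 3181 genes (28.7%) and below them in 2907 (26.2%). At least 2-fold differences from both lines were found for 850 higher genes (7.66%) and 460 lower genes (4.15%). The diploid lines themselves differed in 6137 genes (55.3%), of which 726 (6.54% of those tested) differed at least 2-fold. The smaller of the 2 differences exceeded the gap between the diploid lines in 2423 genes that were higher and 2290 that were lower. At the far end, 34 genes were at least 16-fold higher than in both lines and 12 at least 16-fold lower. The split of calls depended on scaling: with median centring, where the medians over all genes came to -0.24 and -0.26, 1801 genes (28.6% of calls) were higher and 4487 lower. Centring moved the difference of each gene from a line by the same amount, so it changed signs and counts but not the distance of a list or chromosome from all genes. With the line as a random block, in which arrays of 1 line correlated at 0.713, 1473 were higher and 1339 lower.

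**Figure D1:**
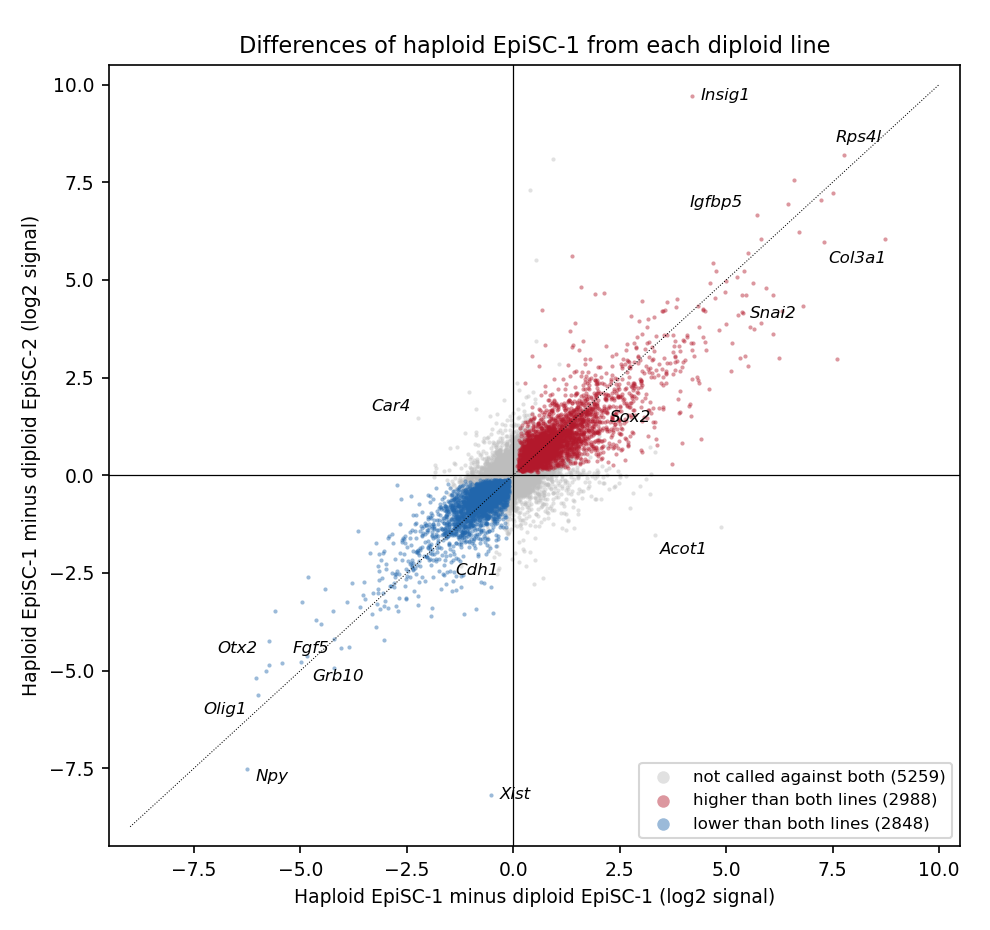
Each point is 1 of the 11095 tested genes, with its difference from diploid EpiSC-1 on the x axis and from diploid EpiSC-2 on the y axis, both in log2 signal; red points were called higher and blue points lower than both lines. Named genes include Rps4l, Igfbp5 and Col3a1 at the upper right, Npy, Olig1 and Grb10 at the lower left, and Xist, which lies far from zero on the y axis alone.

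The genes that stood highest above both diploid lines included those of extracellular matrix, cell adhesion and patterning. Rps4l, a gene for a ribosomal protein S4-like protein (Entrez 66184, chromosome 6), had signals of 7719, 7083 and 7461 in haploid EpiSC-1, 37.7, 21.7 and 47.8 in diploid EpiSC-1 and 16.4, 46.8 and 21.4 in diploid EpiSC-2. The haploid arrays lay far above all 6 diploid arrays, with differences of 7.77 and 8.19 (SE 0.34, adjusted p = 4.73e-10). After 32 was added to each signal, its nearer difference was 6.80. Rps4x, the X-linked gene for ribosomal protein S4, was not called against either line (0.041 and 0.029, adjusted p = 0.722), with signals of 28003 against 27213 and 27529.

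Igfbp5, which encodes a secreted binding protein for insulin-like growth factors (Entrez 16011, chromosome 1), was at 8225, 8497 and 9160 in haploid EpiSC-1, 161, 148 and 179 in diploid EpiSC-1 and 74.3, 86.5 and 95.2 in diploid EpiSC-2. Its differences were 5.73 and 6.67 (SE 0.10, adjusted p = 2.83e-13), and the ranges of the lines did not meet. A second tested probe set of Igfbp5 gave smaller differences, 1.80 and 1.56. The glutathione transferase gene Gstm5 was higher by 6.71 and 6.22 and the interferon-inducible GTPase gene Gbp2b by 6.45 and 6.94. Megf10, a receptor gene for the uptake of apoptotic cells, was higher by 6.58 and 7.57, and Camk2n1, which encodes an inhibitor of calcium/calmodulin kinase II, by 5.37 and 4.61. Serpinf1, the gene of pigment epithelium-derived factor, was higher by 4.98 and 4.70 and the matrix glycoprotein gene Tnc by 5.94 and 4.80.

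Among the genes that stood lowest, several act in neural and epiblast cells. Npy, the neuropeptide Y gene (Entrez 109648, chromosome 6), had signals of 19.97, 42.6 and 54.7 in haploid EpiSC-1, 2903, 2534 and 2829 in diploid EpiSC-1 and 6149, 6761 and 7008 in diploid EpiSC-2. Olig1, a basic helix-loop-helix factor of the oligodendrocyte lineage (Entrez 50914, chromosome 16), was at 31.9, 41.8 and 31.4 in haploid EpiSC-1, 2181, 2214 and 2223 in diploid EpiSC-1 and 1756, 1597 and 1777 in diploid EpiSC-2. Neither gene had a haploid array within reach of a diploid one, with differences of -6.26 and -7.53 (SE 0.26, adjusted p = 2.6e-10) and -5.99 and -5.62 (SE 0.11, adjusted p = 5.22e-13). Hopx, an atypical homeodomain gene, changed by -3.20 and -3.30, and Slc27a2, a fatty acid transporter and very long-chain acyl-CoA synthetase gene, by -3.61 and -3.36. Spon1, which encodes the matrix protein F-spondin, changed by -6.03 and -5.20, but its haploid signals of 2.87, 6.50 and 22.3 were at the background, so that the size is uncertain. The uncharacterised genes 1700007K13Rik and LOC102631979 changed by -3.22 and -3.88 and by -4.21 and -4.19.

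Core pluripotency genes such as Pou5f1 and Foxd3 were lower, and Sox2 was higher. Of 15 tested, 12 were lower and 1 higher, with medians of -0.75 and -0.54 beside 0.0056 and 0.034 for all tested genes. Over all tested genes 26.9% were higher and 25.7% lower, the shares to set beside each count of tested list members below. With the line block 7 of the 15 were lower and 1 higher. Pou5f1, which encodes Oct4 (Entrez 18999, chromosome 17), had signals of 4278, 4250 and 4264 in haploid EpiSC-1, 9710, 9498 and 9578 in diploid EpiSC-1 and 8542, 8846 and 9250 in diploid EpiSC-2. All haploid arrays lay below all diploid ones, at differences of -1.17 and -1.06 (SE 0.04, adjusted p = 1.5e-10). Sox2, the partner of Oct4 on shared enhancers (Entrez 20674, chromosome 3), went the other way, at 4558, 4573 and 4480 in haploid EpiSC-1, 1009, 1041 and 964 in diploid EpiSC-1 and 1234, 1220 and 1072 in diploid EpiSC-2. Its 3 haploid values lay close together and above every diploid value, at 2.18 and 1.95 (SE 0.06, adjusted p = 2.99e-11). Nanog was at 2112 against 5883 and 2662, so that it lay much farther from diploid EpiSC-1 than from diploid EpiSC-2 (-1.48 and -0.33, adjusted p = 1.73e-05). The Nodal co-receptor gene Tdgf1 changed by -0.75 and -1.08, the epithelial adhesion gene Epcam by -0.99 and -1.15, Dppa2 by -1.56 and -2.47 and the forkhead gene Foxd3 by -2.65 and -1.99. Utf1 and Lin28a were called against each diploid line, but in opposite directions.

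Genes of the primed epiblast were lower too, several of them down to the background. Of 24 tested, 17 were lower, 11 of them at least 2-fold, and 3 were higher, with medians of -1.28 and -0.84. Of the 17, 2, Cer1 and Foxa2, had haploid means below the filter level and passed the filter through their diploid signals. Otx2, the homeobox gene of the epiblast and anterior neural tissue (Entrez 18424, chromosome 14), was at 81.5, 67.01 and 73.5 in haploid EpiSC-1, 3971, 3863 and 4052 in diploid EpiSC-1 and 2048, 2076 and 2275 in diploid EpiSC-2. Fgf5, the growth factor gene that marks the epiblast after implantation (Entrez 14176, chromosome 5), was at 72.4, 64.4 and 124 in haploid EpiSC-1, 3480, 3530 and 3852 in diploid EpiSC-1 and 2460, 2437 and 2098 in diploid EpiSC-2. In both genes the diploid arrays lay above 2000 and the haploid arrays near the background. The differences were -5.75 and -4.85 (SE 0.08, adjusted p = 1.4e-13) for Otx2 and -5.44 and -4.80 (SE 0.18, adjusted p = 1.65e-10) for Fgf5.

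Cer1, a secreted antagonist of Nodal, BMP and Wnt (Entrez 12622, chromosome 4), had signals of 15.1, 28.4 and 24.5 in haploid EpiSC-1, 1122, 1272 and 1293 in diploid EpiSC-1 and 798, 710.2 and 629 in diploid EpiSC-2, and its haploid arrays were below the filter level. The differences were -5.81 and -5.02 (SE 0.19, adjusted p = 2.2e-10). Dnmt3b, the de novo DNA methyltransferase gene of the epiblast, was at 4987, 5238 and 5127 in haploid EpiSC-1, 20547, 24621 and 20148 in diploid EpiSC-1 and 15327, 14241 and 13825 in diploid EpiSC-2, with differences of -2.08 and -1.50 (SE 0.07, adjusted p = 8.11e-10). It remained well above the filter level in haploid EpiSC-1 although every haploid array was lower. The amino acid transporter gene Slc7a3 changed by -1.69 and -1.37, the Activin inhibitor gene Fst by -1.51 and -1.26 and the ETS factor gene Etv5 by -0.83 and -0.58, whose call was lost with the line block (adjusted p = 0.0648). Higher were the Nodal inhibitor gene Lefty1 (0.83 and 1.27, adjusted p = 3.1e-08), the Wnt-binding gene Sfrp2 and the methyltransferase gene Dnmt3a, but the last 2 were not called with the line block (adjusted p = 0.057 and 0.0888), nor Dnmt3a with median centring (0.796).

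**Figure D2:**
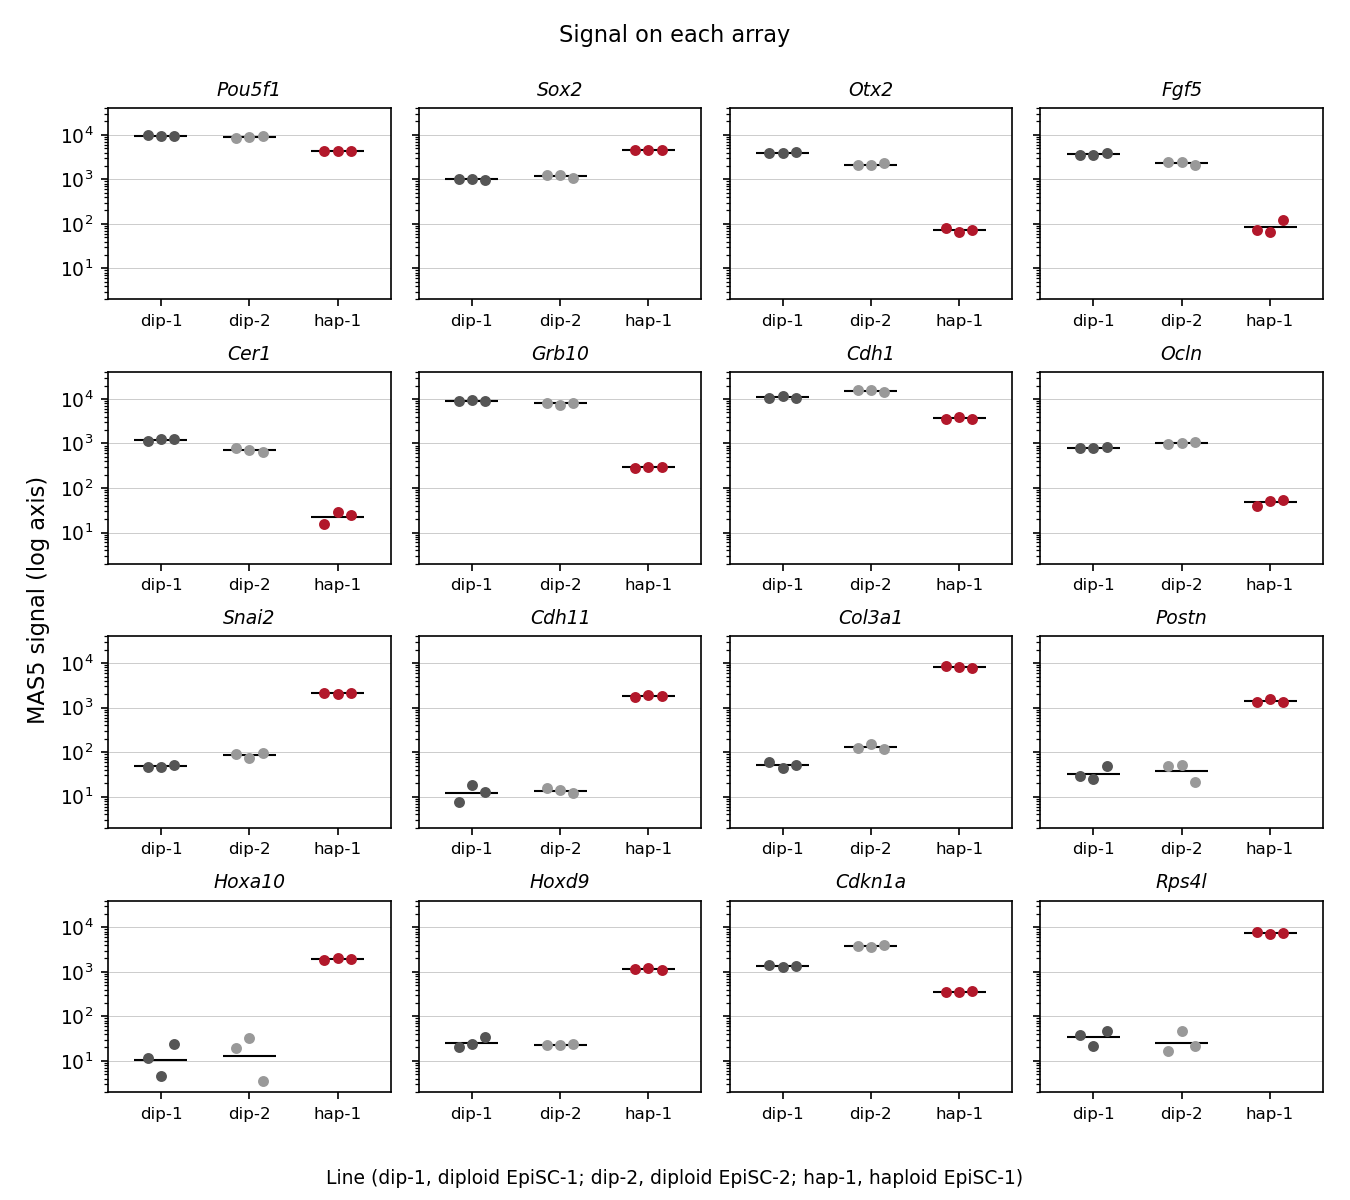
MAS5 signal on a log axis for 16 genes on each of the 9 arrays; grey points are the diploid arrays, red points the haploid ones, and a bar marks the mean of log2 values. The haploid arrays lie below the diploid arrays of both lines for Pou5f1, Otx2, Fgf5, Cer1, Grb10, Cdh1, Ocln and Cdkn1a and above them for the other 8 genes.

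Naive pluripotency genes, which mark the epiblast before implantation, did not move together. Of 10 tested, 5 were higher and 2 lower, and medians were 1.74 against diploid EpiSC-1 and 0.54 against diploid EpiSC-2. Of the 5, Gbx2 had both diploid means below the filter level (38.1 and 31.1) and was tested through its signal in haploid EpiSC-1 alone. Gbx2, a homeobox gene downstream of LIF and Stat3, was at 233, 234 and 257 in haploid EpiSC-1, 34.2, 42.99 and 37.2 in diploid EpiSC-1 and 30.4, 34.2 and 28.8 in diploid EpiSC-2, and its haploid arrays were all above the diploid ones (2.67 and 2.96, SE 0.23, adjusted p = 2.53e-07). Stat3, the transcription factor of LIF signalling, rose too (2.19 and 2.08, adjusted p = 6.9e-11), as did its feedback inhibitor Socs3 (1.87 and 1.03, adjusted p = 7.23e-07). The Krüppel-like factor gene Klf4 had signals of 396, 382 and 506 in haploid EpiSC-1, 63.7, 74.7 and 88.9 in diploid EpiSC-1 and 180.3, 162 and 169 in diploid EpiSC-2. Klf4 was higher than in both lines (2.50 and 1.32, adjusted p = 1.01e-05), and the 5-methylcytosine oxidase gene Tet2 by 1.62 and 0.85. Fgf4, which is made by the early epiblast, fell (-2.74 and -2.46, adjusted p = 5.4e-11), and so did Dppa5a (-1.74 and -2.13, adjusted p = 1.47e-08). Esrrb was at 52.01 against 55.01 and 76.8 and Zfp42 (Rex1) at 87.7 against 18.9 and 14.6, both under the filter on the mean of the arrays. In the fit without the filter Zfp42, a marker of naive cells, was higher by 2.24 or more (adjusted p = 0.000747) and Esrrb was not called, which made 6 higher and 2 lower among the naive genes on the array.

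Markers of the first lineages differed from gene to gene. Of 12 primitive streak and mesoderm genes tested, 5 were lower and 1 higher, or 3 and 0 with the line block. Of the 5, 4 had a haploid mean below the filter level and passed the filter through their diploid signals, so this count is no support. Below the filter, Evx1, Fgf17 and Foxf1 were higher and none lower, which made 4 higher and 5 lower. The member higher among those tested was the receptor gene Pdgfra, which was not called with the line block or with averaged probe sets (adjusted p = 0.0887 and 0.0715). Lhx1, a LIM homeobox gene of the anterior streak, was at 6.09, 49.2 and 45.6 in haploid EpiSC-1, 1240, 1272 and 1322 in diploid EpiSC-1 and 484, 413 and 459 in diploid EpiSC-2 (-5.74 and -4.24, adjusted p = 2.22e-05). Mixl1 changed by -2.38 and -1.40 and Eomes, a T-box gene of the streak, by -0.93 and -0.92. Gsc, the gene of the organiser factor Goosecoid, was also lower (-4.53 and -3.81, adjusted p = 0.000194), but not with the line block (adjusted p = 0.0818). Of 14 endoderm genes tested, 6 were higher and 4 lower. Of the 4, Sox17 (33.3), Foxa2 (40.7) and Cer1 (22.7) had haploid means below the filter level and passed the filter through their diploid signals. The definitive endoderm factors Sox17 (-4.23 and -3.47, adjusted p = 1.1e-10) and Foxa2 (-3.78 and -2.75, adjusted p = 6.96e-08) fell with Cer1, and Sox17 was at 31.97, 32.3 and 35.7 on the haploid arrays and 351 or more on every diploid array. Higher were genes of basement membrane and uptake, Col4a1 (2.39 and 1.30), Col4a2 (3.10 and 1.97), the laminin gene Lamb1 and the adaptor gene Dab2 (1.42 and 1.90), besides Foxa1 and Pdgfra. With endoderm genes below the filter included, 8 were higher and 4 lower. Of 9 neural progenitor genes tested, 2 were higher and 3 lower, beside 26.9% and 25.7% of all tested genes. The 2 were Gbx2, with both diploid means below the filter level, and Msi1, which turned to -0.14 with averaged probe sets (adjusted p = 0.657). Of the 3, Npy and Olig1 had haploid means below the filter level, and Fabp7 kept its call in 10 of 17 alternatives (0.421 with the line block). Below the filter, 5 more were higher and 0 lower. Zic1, a zinc finger gene of the dorsal neural tube and somites, was at 913 against 4.70 and 12.7, the paired box gene Pax3 at 188 against 30.1 and 18.3 and the early neural gene Sox1 at 88.3 against 18.7 and 21.3; the others were En1 and Lhx2. Among the shorter marker sets, summed signals in haploid EpiSC-1 were below those of every diploid array for mesoderm (678 to 767 against 946 or more), endoderm (386 to 455 against 1438 or more) and neural cells (851 to 981 against 2941 or more). The mesoderm sum followed Eomes (294 against 555 and 550) and Mixl1, while Foxf1 (117 against 29.3 and 42.1), Tbx6 and Kdr had higher haploid means. The neural sum followed Olig1 and Nes (719 against 742 and 1315), while Sox1 in the neural set was higher.

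Of 12 trophoblast genes tested, 5 were higher and 2 lower, with medians of 0.95 and -0.76, and 8 were higher and 2 lower with those below the filter included. Tfap2c, an AP-2 factor of trophoblast and germ cells, was at 647, 555 and 577 in haploid EpiSC-1, 46.96, 26.2 and 31.6 in diploid EpiSC-1 and 182, 172 and 163 in diploid EpiSC-2. Its haploid arrays lay above all others (4.13 and 1.78, adjusted p = 3.81e-06). Gata2 rose by 2.52 and 1.74 and the placental gene Plac1 by 1.51 and 1.75, while the keratin gene Krt7 fell by 1.13 or more on the log2 scale, a call lost with the line block (adjusted p = 0.162). The summed signal of the 6 trophoblast markers was 1809 to 1961 in haploid EpiSC-1 against 351 to 387 and 371 to 412. Of these, Gata3 was at 471 against 17.7 and 22.5, Cdx2 is given below with the caudal genes, and Elf5, a defining trophoblast factor, was at 12.9 against 24.0 and 21.1.

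Hox genes, the homeobox genes that set position along the body axis and are arranged in 4 clusters, were higher in every cluster. Of 42 Hox and caudal genes listed, 36 were on the array and 7 passed the filter on the mean of 9 arrays. Those 7 were called higher, but 6 of them had both diploid means below the filter level and passed through their signal in haploid EpiSC-1 alone, so this count is no support. In the fit of all 18194 genes without the filter, 26 of the 36 were higher and 0 lower, where 17.6% of all genes were higher and 15.7% lower. They were 6 of 9 in the Hoxa cluster (chromosome 6), 6 of 9 in Hoxb (chromosome 11), 7 of 7 in Hoxc (chromosome 15), 6 of 8 in Hoxd (chromosome 2) and 1 of 3 caudal genes. With the line block 4 of the 7 tested were higher.

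Hoxa10 (Entrez 15395, chromosome 6) was at 1866, 2066 and 1971 in haploid EpiSC-1, 11.5, 4.54 and 23.6 in diploid EpiSC-1 and 19.2, 33.4 and 3.52 in diploid EpiSC-2. Hoxd9 (Entrez 15438, chromosome 2) was at 1179, 1204 and 1119 in haploid EpiSC-1, 20.02, 24.3 and 33.9 in diploid EpiSC-1 and 22.4, 22.4 and 23.5 in diploid EpiSC-2, and Hoxd13, the last gene of its cluster, at 635, 717 and 661 in haploid EpiSC-1, 33.3, 61.8 and 51.5 in diploid EpiSC-1 and 42.7, 42.5 and 21.3 in diploid EpiSC-2. In these 3 genes every diploid array was below the filter level and every haploid array above 600. Differences were 7.52 and 7.23 (SE 0.71, adjusted p = 1.23e-06), 5.52 and 5.68 (SE 0.22, adjusted p = 2.28e-10) and 3.82 and 4.31 (SE 0.29, adjusted p = 9.21e-08). After 32 was added to each signal, the nearer difference of Hoxa10 was 5.34 and that of Hoxd9 4.37. Hoxd8 was also higher (5.40 and 4.15, adjusted p = 0.000408), but not with the line block (adjusted p = 0.097). Below the filter, and chosen after their values were seen, Hoxa9 was at 1552 against 22.3 and 7.92, Hoxd10 at 1135 against 12.2 and 9.70, Hoxb9 at 683 against 11.9 and 13.2 and Hoxc8 at 574 against 4.85 and 6.76. The caudal gene Cdx2, which acts upstream of Hox genes in the trunk, was at 997, 882 and 1093 in haploid EpiSC-1, 13.7, 25.3 and 11.8 in diploid EpiSC-1 and 3.49, 30.6 and 3.83 in diploid EpiSC-2. Members that were not called included Hoxa4, Hoxd12 and Cdx1, with mean signals under 20 in all 3 lines.

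Genes of mesenchymal cells were higher and none was lower. Of 23 mesenchymal regulators and adhesion genes tested, 20 were higher (16 at least 2-fold) and 0 lower, with medians of 2.63 and 1.57. Of these 20, 6 had both diploid means below the filter level. With the members below the filter included, 22 of 27 on the array were higher and 0 lower, beside 17.6% and 15.7% of all genes without the filter. Snai2, which encodes the transcriptional repressor Slug (Entrez 20583, chromosome 16), had signals of 2128, 2072 and 2121 in haploid EpiSC-1, 45.5, 46.5 and 52.1 in diploid EpiSC-1 and 89.6, 74.4 and 95.3 in diploid EpiSC-2. Cdh11, the gene of the mesenchymal cadherin-11 (Entrez 12552, chromosome 8), was at 1732, 1897 and 1865 in haploid EpiSC-1, 7.52, 18.2 and 13.01 in diploid EpiSC-1 and 15.8, 13.8 and 11.9 in diploid EpiSC-2. No haploid array came near a diploid one in either gene, at 5.46 and 4.62 (SE 0.13, adjusted p = 1.73e-11) and 7.24 and 7.06 (SE 0.31, adjusted p = 5.85e-10). Emp1, which encodes a membrane protein with several passes, was higher by 8.74 and 6.04, Tgfbi, a matrix gene induced by TGF-beta, by 5.83 and 6.06 and the receptor tyrosine kinase gene Axl by 3.58 and 2.35. The vimentin gene Vim differed from diploid EpiSC-1 by 1.85 and from diploid EpiSC-2 by -0.0077, and was not called. Diploid EpiSC-2 itself was above diploid EpiSC-1 in this list, with a median gap of 0.94, so the differences were smaller against diploid EpiSC-2.

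The fibroblast feeder list overlaps the mesenchymal one in Fn1 and Vim. Of its 27 tested genes, 21 were higher (17 at least 2-fold) and 0 lower, with medians of 2.88 and 1.91. Of these 21, 2 had both diploid means below the filter level. With those below the filter included, 23 of 31 were higher, beside 17.6% of all genes without the filter. Col3a1, a fibrillar collagen gene (Entrez 12825, chromosome 1), was at 8533, 8095 and 7813 in haploid EpiSC-1, 60.5, 43.6 and 51.3 in diploid EpiSC-1 and 123, 152 and 116 in diploid EpiSC-2, and Postn, the gene of the matrix protein periostin, at 1364, 1531 and 1376 in haploid EpiSC-1, 29.7, 25.2 and 48.8 in diploid EpiSC-1 and 47.95, 51.5 and 21.8 in diploid EpiSC-2. Both were far above every diploid array (7.31 and 5.98, adjusted p = 2.04e-12 for Col3a1; 5.42 and 5.24, adjusted p = 1.26e-08 for Postn). The collagen gene Col1a2 was higher by 4.99 and 3.88, Acta2, which encodes smooth muscle actin, by 3.79 and 2.69 and the matrix gene Thbs2 by 5.24 and 5.08. The matricellular genes Ccn1 and Ccn2 and the stromal gene Thy1 were not called higher. Whether these signals came from feeder cells or from the labelled cells themselves was not tested, and this holds for each gene group that is high together with them.

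Epithelial genes fell. Of 31 genes of junctions, polarity and keratins tested, 18 were lower (13 at least 2-fold) and 1 higher, with medians of -0.99 and -1.07. The shares over all tested genes were 25.7% lower and 26.9% higher. Of the 18, 2 had a haploid mean below the filter level, Ocln among them. Ocln, which encodes the tight junction protein occludin (Entrez 18260, chromosome 13), was at 40.4, 51.9 and 53.1 in haploid EpiSC-1, 786, 791 and 822 in diploid EpiSC-1 and 995, 1050 and 1080 in diploid EpiSC-2. Cdh1, the E-cadherin gene (Entrez 12550, chromosome 8), was at 3618, 3921 and 3489 in haploid EpiSC-1, 10540, 11560 and 10656 in diploid EpiSC-1 and 15820, 15640 and 14558 in diploid EpiSC-2. Ocln was near the background in haploid EpiSC-1 (-4.05 and -4.43, SE 0.11, adjusted p = 8.28e-12), whereas Cdh1 was reduced on every haploid array but still bright (-1.57 and -2.06, SE 0.05, adjusted p = 5.11e-11). Crb3, a polarity gene (Entrez 224912, chromosome 17), changed by -2.88 and -2.83, the claudin gene Cldn7 by -3.14 and -2.03 and Esrp1, a splicing factor gene of epithelia, by -2.01 and -1.83. The keratin genes Krt8 and Krt18 lay above diploid EpiSC-1 (1.20 and 0.67) and below diploid EpiSC-2 (-0.79 and -0.78). The junction gene F11r, the member called higher, turned to -0.0918 with arrays centred on their medians.

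Snai2 and the Zeb factors are known to bind E-boxes in epithelial promoters. The 250 bases before the transcription start of 3 of the lowest junction genes are shown for that reason, from RefSeq, build GRCm38.p6, written 5′ to 3′ along the gene, with CACCTG and its reverse complement CAGGTG in capitals. Crb3 lies at chr17:57061951-57062200 on the plus strand, Cldn7 at chr11:69965171-69965420 on the plus strand and Ocln at chr13:100552499-100552748 on the minus strand, each with 2 starts in the table, of which the 1 with the most matches is given.
Crb3: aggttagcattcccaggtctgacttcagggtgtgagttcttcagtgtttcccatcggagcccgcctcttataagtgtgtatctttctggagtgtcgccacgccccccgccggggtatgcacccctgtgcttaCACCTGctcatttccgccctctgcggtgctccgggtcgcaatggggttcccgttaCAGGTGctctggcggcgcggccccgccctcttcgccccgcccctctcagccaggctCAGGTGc
Cldn7: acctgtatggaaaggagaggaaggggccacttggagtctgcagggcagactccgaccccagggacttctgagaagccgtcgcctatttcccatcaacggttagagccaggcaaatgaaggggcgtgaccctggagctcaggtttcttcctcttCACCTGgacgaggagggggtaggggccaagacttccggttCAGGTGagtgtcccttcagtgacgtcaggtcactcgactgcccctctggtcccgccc
Ocln: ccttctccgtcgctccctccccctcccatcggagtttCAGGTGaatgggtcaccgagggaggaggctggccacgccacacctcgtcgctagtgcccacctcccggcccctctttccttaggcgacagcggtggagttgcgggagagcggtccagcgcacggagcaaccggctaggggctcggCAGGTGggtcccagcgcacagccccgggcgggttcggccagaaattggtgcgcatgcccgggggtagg
Crb3 held 3 matches, from -118 to -7 counted from the start, Cldn7 held 2 and Ocln 2. Of the 18 junction and keratin genes that fell, 11 were in the promoter table, and 10 of these held the hexamer before at least 1 start. Of the 13 others tested, 9 were in the table and 4 held it. Over all 27025 genes in the table the share was 19.4%, and over all 32851 windows 17.2%. A match is a description of the sequence, and binding was not measured.

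Targets of p53, the transcription factor that answers DNA damage, were lower. Of 32 tested, 21 were lower (12 at least 2-fold) and 2 higher, beside 25.7% lower and 26.9% higher over all tested genes. The medians were -0.92 and -0.94, and below the filter 2 more were higher. Of the 21, Eda2r alone had a haploid mean below the filter level (36.7). Cdkn1a, which encodes the cell cycle inhibitor p21 (Entrez 12575, chromosome 17), had signals of 358, 361 and 364 in haploid EpiSC-1, 1429, 1282 and 1335 in diploid EpiSC-1 and 3885, 3668 and 3931 in diploid EpiSC-2. Ccng1, the cyclin G1 gene (Entrez 12450, chromosome 11), was at 1551, 1801 and 1661 in haploid EpiSC-1, 9511, 9889 and 9342 in diploid EpiSC-1 and 15064, 15020 and 14716 in diploid EpiSC-2. Both were below every diploid array, and lay farther from diploid EpiSC-2 than from diploid EpiSC-1, at -1.90 and -3.40 (SE 0.06, adjusted p = 1.64e-11) and -2.52 and -3.16 (SE 0.05, adjusted p = 6.55e-13). Eda2r, a death receptor gene on the X chromosome, was at 34.2, 35.4 and 40.4 in haploid EpiSC-1, 674, 669.9 and 674 in diploid EpiSC-1 and 1123, 1142 and 1095 in diploid EpiSC-2 (-4.20 and -4.94, adjusted p = 2.01e-12). The reductase gene Dcxr changed by -2.70 and -3.14 and Zmat3, a zinc finger gene of the p53 response, by -2.09 and -2.06. The 2 that rose were the stress genes Gadd45a (2.77 and 1.49, adjusted p = 3.2e-10) and Gadd45g (3.46 and 2.37, adjusted p = 1.54e-07).

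The promoters of Cdkn1a and Ccng1 are shown because both are long-known targets of p53. The p53 half-site, a 10-base pattern, is in capitals in the 250 bases before a start of Cdkn1a (chr17:29090729-29090978, plus strand) and of Ccng1 (chr11:40755287-40755536, minus strand), from RefSeq, build GRCm38.p6.
Cdkn1a: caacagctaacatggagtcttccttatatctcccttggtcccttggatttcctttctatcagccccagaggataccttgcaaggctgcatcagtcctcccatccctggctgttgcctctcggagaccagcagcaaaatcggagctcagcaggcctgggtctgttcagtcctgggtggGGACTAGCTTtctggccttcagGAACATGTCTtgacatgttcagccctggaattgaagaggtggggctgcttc
Ccng1: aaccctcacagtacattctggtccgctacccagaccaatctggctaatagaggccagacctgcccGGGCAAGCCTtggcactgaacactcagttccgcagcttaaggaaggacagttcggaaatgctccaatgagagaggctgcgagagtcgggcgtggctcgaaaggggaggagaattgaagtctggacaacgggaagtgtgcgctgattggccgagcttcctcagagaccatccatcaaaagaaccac
By exact matches alone, Cdkn1a held 2 half-sites, at -73 and -51 from the start shown, and Ccng1 held 1, at -185. The 10 bases after the second Cdkn1a half-site begin with T where the pattern has A or G, and are not marked. A pair of half-sites with at most 13 bases between them was found in 0.0639% of all windows and before 18 of 27025 genes. Cdkn1a was the single gene with such a pair among the 17 lower p53 targets in the table. Of its 2 listed starts the 1 with the most such pairs is shown, while Ccng1 has 1 listed start. At least 1 half-site was before 6 of the 17 lower targets, Cdkn1a among them. The same was found before 4 of the 8 other tested targets in the table and before 8.20% of all genes.

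Pmaip1, which encodes the BH3-only protein Noxa and is another p53 target, was far higher on every haploid array. Its signals were 2944, 3058 and 2901 in haploid EpiSC-1, 4.80, 8.24 and 6.78 in diploid EpiSC-1 and 9.86, 1.76 and 17.7 in diploid EpiSC-2, so that the 6 diploid arrays lay under 20. Its mean was under the filter. The fit without the filter gave 8.85 and 8.78 (adjusted p = 1.12e-07). Of 22 genes of the Bcl2 family and caspases tested, 7 were higher and 6 lower, and with arrays centred on their medians 5 were higher and 7 lower. The BH3-only genes Bbc3 (Puma) and Bik fell, by 1.07 and 1.36 or more on the log2 scale, while Bmf (1.81 and 1.16) and Bcl2l11, the gene of Bim (1.16 and 0.70), rose. Averaging all Bmf probe sets lost that call (adjusted p = 0.272).

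Inhibitors of cyclin-dependent kinases moved in opposite directions. Cdkn2a, the locus of p16 and Arf (Entrez 12578, chromosome 4), was at 2940, 2477 and 3707 in haploid EpiSC-1, 36.98, 35.8 and 64.4 in diploid EpiSC-1 and 257, 219 and 259.8 in diploid EpiSC-2. Its neighbour Cdkn2b, the gene of p15, was at 3121, 3092 and 2823 in haploid EpiSC-1, 218, 202 and 159.7 in diploid EpiSC-1 and 452, 438 and 336 in diploid EpiSC-2. Both were higher than every diploid array (6.09 and 3.62, adjusted p = 7.59e-09 for Cdkn2a; 3.97 and 2.89, adjusted p = 6.89e-10 for Cdkn2b), in contrast to Cdkn1a. Within 35 G1/S and replication genes tested, 10 were higher and 11 lower, beside 26.9% and 25.7% of all tested genes. Of the 10, 1 had both diploid means below the filter level. Ccne1, the cyclin E1 gene, fell (-2.21 and -2.04, adjusted p = 9.92e-09), as did Cdk6 (-1.53 and -0.91), E2f3 (-0.995 and -0.68) and Myc (-0.63 and -0.74). A dimmer Cdk6 probe set differed in direction between the lines (-0.87 and 0.17). With arrays centred on their medians 6 of the 35 were higher and 18 lower, and with the line block 4 and 7.

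Of 33 mitosis and spindle genes tested, 11 were lower and 4 higher, none of them by 2-fold, with medians of -0.073 and -0.057. Hmmr, a spindle and hyaluronan receptor gene, was at 2611, 2632 and 2576 in haploid EpiSC-1, 5010, 4884 and 5047 in diploid EpiSC-1 and 5374, 5114 and 5419 in diploid EpiSC-2 (-0.93 and -1.02, adjusted p = 3.73e-10), and the kinetochore gene Nuf2 changed by -1.06 and -0.91. Of 4 other Hmmr probe sets, 1 differed in direction against diploid EpiSC-2 (-0.88 and 0.17). This count turned on the setting: with quantile normalization 6 of the 33 were higher and 7 lower, with median centring 0 and 19, and with the line block 1 and 4. Genes of the DNA damage response and repair were lower in 14 of 28 and higher in 1, with medians of -0.47 and -0.23 and no difference of 2-fold against both lines. With median centring 24 were lower and 0 higher, and with the line block 9 were lower and 0 higher. Brca2 (-1.09 and -0.86, adjusted p = 2.97e-07), the checkpoint kinase genes Atr (-0.997 and -0.80) and Chek2 (-1.16 and -0.71) and the break-binding gene Rad50 (-1.0004 and -0.73) led this list. Both other Atr probe sets differed in direction between the lines. Averaging probe sets lost the call of Rad50 (adjusted p = 0.773). Wrn, the helicase gene called higher, was not called when probe sets were averaged (adjusted p = 0.274), nor with median centring, quantile normalization or the line block (0.149, 0.0514 and 0.11).

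BMP pathway genes rose. Of 22 tested, 18 were higher (11 at least 2-fold) and 0 lower, with medians of 1.24 and 1.03. Of these 18, 3, among them Bmp5, had both diploid means below the filter level and passed through their signal in haploid EpiSC-1 alone. With those below the filter included, 20 of 29 were higher and 0 lower. In the fit without the filter 17.6% of all genes were higher and 15.7% lower. Among ligands, Bmp4 (Entrez 12159, chromosome 14) had signals of 1651, 1499 and 1763 in haploid EpiSC-1, 176, 141 and 191 in diploid EpiSC-1 and 230.4, 212 and 183 in diploid EpiSC-2. Bmp5 was at 452, 440.2 and 432 in haploid EpiSC-1, 60.2, 51.7 and 50.9 in diploid EpiSC-1 and 24.5, 13.1 and 25.6 in diploid EpiSC-2. Both ligands were above all diploid arrays (3.28 and 2.98, adjusted p = 5.16e-10 for Bmp4; 3.03 and 4.45, adjusted p = 3.36e-07 for Bmp5). The receptor genes Acvr1 (1.56 and 1.69) and Bmpr2 (1.09 and 0.69) rose as well, while Bmpr1a was not called (0.088 and 0.07). Among targets, Id1, an inhibitor of helix-loop-helix factors, was at 2614, 2586 and 2527 in haploid EpiSC-1, 332, 291 and 347 in diploid EpiSC-1 and 501, 463 and 477 in diploid EpiSC-2, and Id3 at 3651, 3596 and 3610 in haploid EpiSC-1, 524, 601 and 534 in diploid EpiSC-1 and 495, 518 and 447 in diploid EpiSC-2. These were higher on each haploid array (2.998 and 2.42, adjusted p = 3.48e-11 for Id1; 2.71 and 2.90, adjusted p = 5.63e-12 for Id3), but Id2 was not called against diploid EpiSC-2 (2.17 and 0.14). Centred on array medians, 14 of the 22 were higher and 1 lower, and with the line block 11 were higher and 0 lower.

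In the Nodal and Activin pathway, whose ligand Activin A was in the medium, 9 of 22 genes were higher and 4 lower. Of the 4, Cer1 alone had a haploid mean below the filter level (22.7). The ligand gene Nodal itself was at 1580, 1656 and 1737 in haploid EpiSC-1, 2357, 2315 and 2259 in diploid EpiSC-1 and 2836, 2476 and 2886 in diploid EpiSC-2 and was lower (-0.48 and -0.72, adjusted p = 1.3e-05). A second Nodal probe set disagreed in direction against diploid EpiSC-2 (-0.47 and 0.21). The inhibitor Lefty1 was at 12047, 10878 and 11882 in haploid EpiSC-1, 6187, 6332 and 7073 in diploid EpiSC-1 and 4748, 4699 and 5022 in diploid EpiSC-2, the haploid arrays being the highest. Inhba, which encodes a subunit of Activin, was higher (2.73 and 1.74, adjusted p = 1.21e-06), but not when its probe sets were averaged (adjusted p = 0.541). With arrays centred on their medians 6 of the 22 were higher and 7 lower, and with the line block 5 and 4.

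In the FGF and ERK pathway 11 of 22 genes were higher and 5 lower, and with the line block 6 and 4. The ligand genes Fgf4 and Fgf5 were the lowest, as given above. The ERK phosphatase genes Dusp4 (1.41 and 1.57, adjusted p = 1.99e-09) and Dusp5 (3.24 and 1.60, adjusted p = 3.18e-08) were higher, while Dusp6 was lower (-0.36 and -0.33). The immediate-early gene Ier3 was at 4659, 4730 and 4862 in haploid EpiSC-1, 1483, 1538 and 1527 in diploid EpiSC-1 and 959, 1113 and 1035 in diploid EpiSC-2, above every diploid array, and Fos was higher by 2.62 and 0.94. Against this, Etv5 and Myc were lower.

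In the Wnt pathway 9 of 26 genes were higher and 6 lower, beside 26.9% and 25.7% of all tested genes. With the line block 6 were higher and 2 lower. Of the 9, 2 had both diploid means below the filter level, Wnt5a among them, and 2 of the 6 had a haploid mean below it. Wnt5a, a ligand of the non-canonical branch, was at 1209, 1220 and 1174 in haploid EpiSC-1, 73.4, 38.6 and 36.01 in diploid EpiSC-1 and 26.3, 22.6 and 36.2 in diploid EpiSC-2, and its haploid arrays stood far apart (4.68 and 5.43, SE 0.27, adjusted p = 5.25e-09). Fzd1, a Wnt receptor gene, was at 1175 against 200.1 and 277 (2.56 and 2.08, adjusted p = 9.29e-10), and Fzd5 at 284 against 1169 and 758 (-2.04 and -1.41, adjusted p = 5.13e-08), so 2 receptors of 1 family moved in opposite directions. The membrane inhibitor gene Apcdd1 (2.10 and 2.11) and Porcn, the acyltransferase gene for Wnt secretion (1.97 and 2.44), were higher. Lgr5, a receptor gene for R-spondins, was lower, but not with the line block or with averaged probe sets (adjusted p = 0.0728 and 0.102). Of 25 YAP and SRF targets tested, 13 were higher and 3 lower. With arrays centred on their medians this became 6 and 4, and with the line block 7 and 3.

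**Figure D3:**
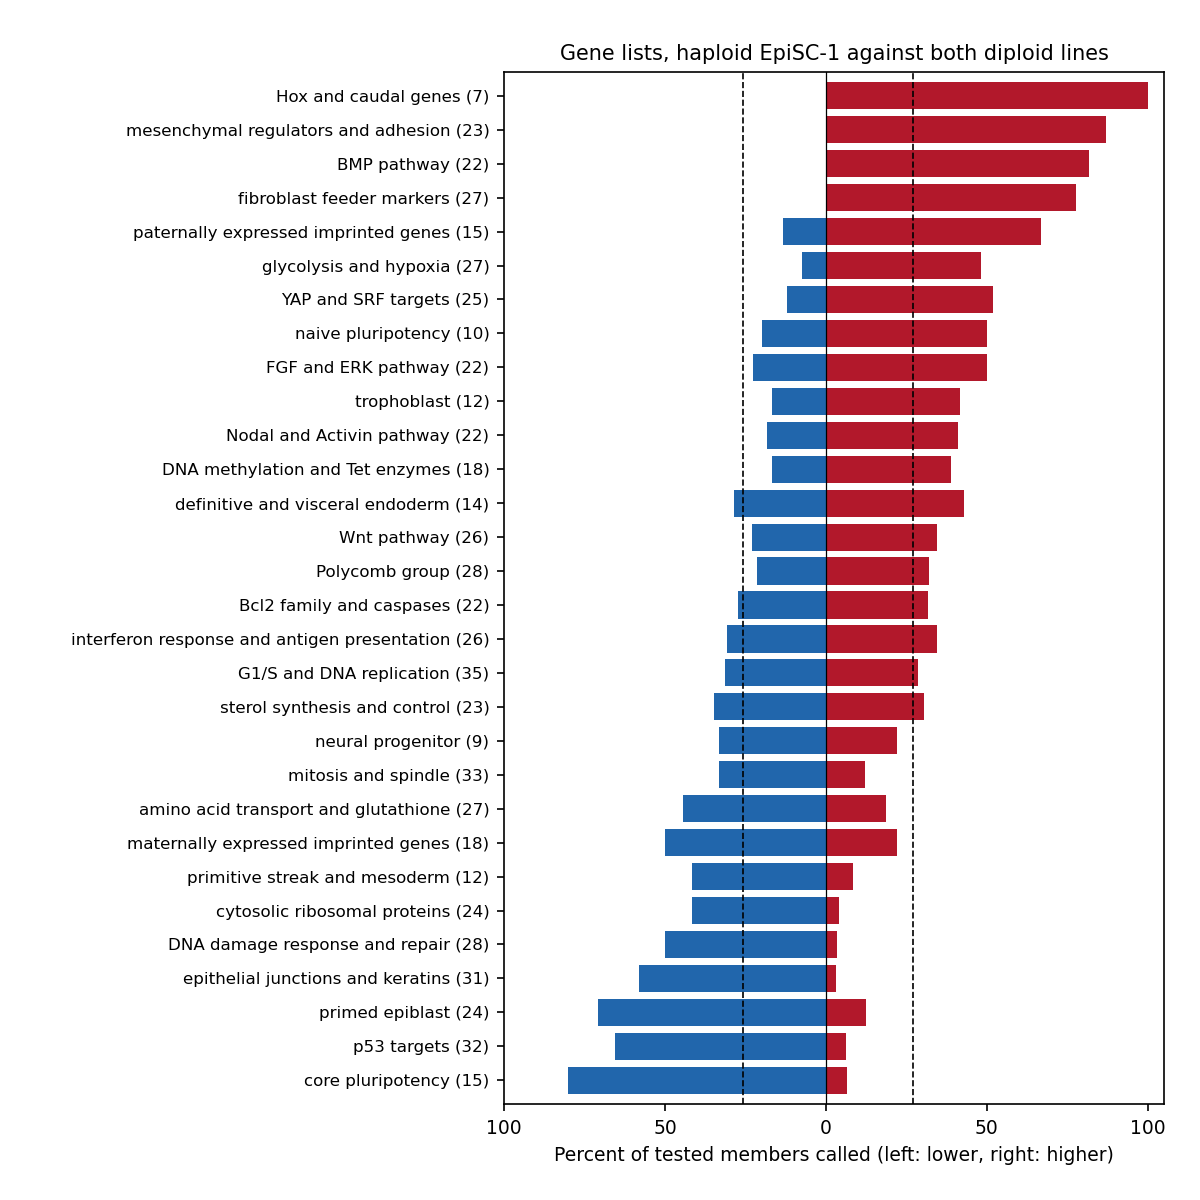
Share of the tested members of each of 30 lists called higher (red, to the right) or lower (blue, to the left) than both diploid lines, in percent, with the number tested in brackets; dashed lines mark the shares over all tested genes, 26.9% higher and 25.7% lower. Hox, mesenchymal, BMP and fibroblast lists have no lower member, and core pluripotency, p53 target and primed epiblast lists lie farthest to the left.

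Imprinted genes are expressed from the allele of 1 parent, and the paternally and maternally expressed ones were listed separately. Of 15 genes tested in the paternal list, 10 were higher (8 at least 2-fold) and 2 lower, with medians of 1.47 and 1.34. Of the 10, Airn alone had both diploid means below the filter level. The 2 lower include Commd1, whose place in this list is doubtful, as given below. With the mean of all probe sets 7 of the 15 were higher and 2 lower, with medians of 0.19 and 0.56. Of 18 maternally expressed genes tested, 4 were higher and 9 lower (4 at least 2-fold), with medians of -0.68 and -0.40. With the mean of all probe sets 2 of the 18 were higher and 7 lower, with medians of -0.35 and 0.044, and with the line block 2 and 6. Which allele was expressed was not measured. Grb10, a maternally expressed inhibitor of growth factor signalling (Entrez 14783, chromosome 11), was at 276, 295 and 302 in haploid EpiSC-1, 9117, 9295 and 9161 in diploid EpiSC-1 and 8014, 7518 and 8258 in diploid EpiSC-2. The haploid values were far below the diploid ones (-4.98 and -4.77, SE 0.05, adjusted p = 3.73e-15), and 2 other tested probe sets of Grb10 gave -2.53 and -1.94, and -2.85 and -2.81.

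Genes that share an imprinted region could be set side by side. Igf2r, a maternally expressed receptor for the clearance of Igf2, was at 294, 269 and 265 in haploid EpiSC-1, 1099, 1018 and 1087 in diploid EpiSC-1 and 908, 903 and 1130 in diploid EpiSC-2. Airn, the paternally expressed noncoding RNA that overlaps Igf2r on the other strand (Entrez 104103, chromosome 17), was at 307, 285 and 335 in haploid EpiSC-1, 30.3, 43.6 and 60.9 in diploid EpiSC-1 and 44.7, 33.7 and 46.996 in diploid EpiSC-2. Igf2r was lower (-1.95 and -1.82, adjusted p = 2.24e-09) and Airn higher (2.84 and 2.90, adjusted p = 6.78e-07) on every array. At distal chromosome 7, Kcnq1ot1, a paternally expressed noncoding RNA, was at 749, 631 and 816 in haploid EpiSC-1, 8.16, 1.74 and 14.5 in diploid EpiSC-1 and 52.2, 17.5 and 15.2 in diploid EpiSC-2, below the filter because of its low diploid signals (without the filter, 6.95 and 4.92, adjusted p = 4.36e-05). The maternally expressed Phlda2 of the same domain was at 324, 350.2 and 329 in haploid EpiSC-1, 3076, 2583 and 3007 in diploid EpiSC-1 and 1457, 1555 and 1532 in diploid EpiSC-2, with the haploid arrays lowest (-3.11 and -2.18, adjusted p = 5.05e-11), and Cdkn1c, also below the filter, at 13.7 against 68.8 and 113. Cd81 and Osbpl5, listed as maternally expressed in that domain too, were higher (1.05 and 0.58 for Cd81; 2.45 and 1.38 for Osbpl5).

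On chromosome 6 the paternally expressed Sgce was at 3378, 3753 and 3856 in haploid EpiSC-1, 623, 734 and 666 in diploid EpiSC-1 and 781, 786 and 845 in diploid EpiSC-2, and Mest, a hydrolase gene, at 4040, 4302 and 4210 in haploid EpiSC-1, 704, 733 and 675 in diploid EpiSC-1 and 967, 1208 and 1157 in diploid EpiSC-2. Both were higher in haploid EpiSC-1 (2.44 and 2.19, adjusted p = 5.88e-11 for Sgce; 2.57 and 1.92, adjusted p = 2.43e-10 for Mest), and the maternally expressed Calcr in the Sgce region was lower (-2.62 and -1.65). The transporter gene Slc38a4 was higher by 2.10 and 1.63 and the Polycomb-related gene Sfmbt2 by 3.17 and 1.66. The growth factor gene Igf2 was at 2131 against 430.3 and 782 (2.32 and 1.45, adjusted p = 1.34e-08). Commd1 and Magel2 were the members of the paternal list that were lower. Magel2 was not called with the line block (adjusted p = 0.19), nor without replicate 2 of haploid EpiSC-1 or replicate 1 of diploid EpiSC-2 (0.0831 and 0.0758). Commd1 stands in the paternal list, although in mouse brain its maternal allele is known to be the more active. At the Dlk1 to Meg3 region, Meg3 changed by -0.19 and -0.28 and Rian by -0.36 and -0.54, both called lower. Gnas and Ube3a, called higher, turned to -0.0691 and -0.0848 with arrays centred on their medians, and were not called with the line block (adjusted p = 0.261 and 0.104).

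**Figure D4:**
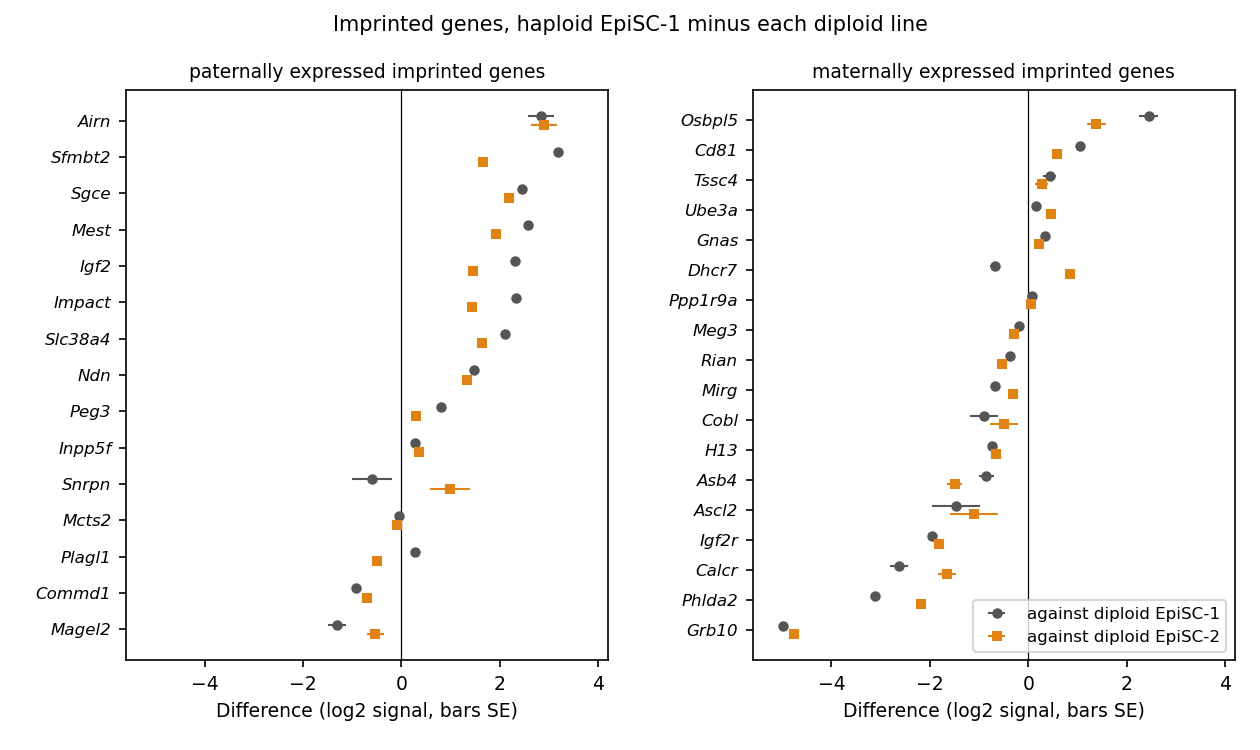
Differences in log2 signal of the tested imprinted genes in haploid EpiSC-1 from diploid EpiSC-1 (grey circles) and diploid EpiSC-2 (orange squares), with the SE of the fit. The list of paternally expressed genes, in which Commd1 stands, is on the left and that of maternally expressed genes on the right. Genes are ordered by difference, with Airn, Sfmbt2, Sgce and Mest at the top of the left panel, and Grb10, at -4.98 and -4.77, at the bottom of the right panel.

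Enzymes of DNA methylation did not share a direction: 7 of 18 were higher and 3 lower, and 4 and 4 with median centring or 3 and 2 with the line block. The shares over all tested genes were 26.9% higher and 25.7% lower. Dnmt3b was lower as described, and Tet1, an oxidase of 5-methylcytosine, fell on its brightest probe set (-1.51 and -1.39, adjusted p = 3.05e-09) but not when its probe sets were averaged (adjusted p = 0.367). Tet2 (1.62 and 0.85) and Uhrf2 (1.44 and 1.53), a reader of modified cytosine, were higher. Of 28 Polycomb genes tested, 9 were higher and 6 lower, near the shares of all tested genes. Of the 9, 1 had both diploid means below the filter level. Bmi1, a subunit of Polycomb repressive complex 1, was at 645, 608 and 741 in haploid EpiSC-1, 101, 149.6 and 156 in diploid EpiSC-1 and 243, 256 and 221 in diploid EpiSC-2, and Cbx7, another subunit of that complex in pluripotent cells, at 440.2, 400.0 and 462 in haploid EpiSC-1, 1293, 1173 and 1215 in diploid EpiSC-1 and 1046, 954 and 1084 in diploid EpiSC-2. Bmi1 rose (2.32 and 1.47, adjusted p = 3.03e-06) and Cbx7 fell (-1.50 and -1.24, adjusted p = 1.39e-08), with no overlap of arrays in either. The repressive complex 2 genes Eed (-0.47 and -0.53) and Jarid2 (-0.79 and -0.78) were lower, and the catalytic gene Ezh2 was not called (0.018 and 0.043). With arrays centred on their medians 7 Polycomb genes were higher and 13 lower, and with the line block 5 and 5.

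Of 24 ribosomal protein genes tested, 10 were lower and 1, Rps4l, higher. Rps4l had both diploid means below the filter level (35.7 and 28.2) and was tested through its signal in haploid EpiSC-1 alone. The number lower depended on scaling, with 22 lower after median centring, 6 lower and 2 higher after quantile normalization and 5 lower with the line block. Rpl14 was at 814, 843 and 806 in haploid EpiSC-1, 2069, 2132 and 2168 in diploid EpiSC-1 and 2207, 2075 and 2147 in diploid EpiSC-2, and Rpl22l1, a paralogue of Rpl22, at 4820, 5189 and 5290 in haploid EpiSC-1, 11941, 11279 and 12667 in diploid EpiSC-1 and 15128, 14050 and 15116 in diploid EpiSC-2. These 2 were lower on every haploid array (-1.37 and -1.38, adjusted p = 1.09e-10 for Rpl14; -1.23 and -1.53, adjusted p = 3.8e-10 for Rpl22l1), and near-identical pseudogenes can share signal with ribosomal probe sets. Of 27 glycolysis and hypoxia genes, 13 were higher and 2 lower, but 6 and 5 with arrays centred on their medians and 8 and 0 with the line block. Bnip3, a mitophagy gene induced by hypoxia, was at 12281, 12240 and 12290 in haploid EpiSC-1, 4462, 4678 and 4546 in diploid EpiSC-1 and 4862, 4888 and 5099 in diploid EpiSC-2, above every diploid array (1.43 and 1.31, adjusted p = 2.02e-11), and the collagen prolyl hydroxylase gene P4ha1 was higher by 1.61 and 1.84.

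Of 23 sterol genes tested, 8 were lower and 7 higher, or 6 and 4 with the line block. Each of the 8 encodes an enzyme of synthesis, among them Pmvk (-1.36 and -1.37, adjusted p = 2.19e-10), Idi1 (-1.07 and -0.98) and Hmgcs1 (-0.76 and -0.61). Insig1, which retains the sterol sensor Scap in the endoplasmic reticulum, was at 3270, 3574 and 3324 in haploid EpiSC-1, 183, 205 and 164 in diploid EpiSC-1 and 0.73, 7.18 and 12.8 in diploid EpiSC-2. Its haploid arrays were the highest, but the diploid lines differed from each other so far that its differences were 4.21 and 9.71, and the second is uncertain in size because diploid EpiSC-2 was at the background. The cholesterol exporter gene Abca1 was higher by 5.44 and 3.06. The others called higher were the regulators Insig2, Srebf2 and Scap and the enzyme genes Ebp and Sc5d, but Scap was not called with averaged probe sets or with the line block (adjusted p = 0.371 and 0.0852). Among 27 genes of amino acid transport and glutathione, 12 were lower and 5 higher. Slc1a5, the glutamine transporter gene, was at 121, 138 and 133 in haploid EpiSC-1, 1644, 1556 and 1371 in diploid EpiSC-1 and 1092, 1087 and 1130 in diploid EpiSC-2, with all haploid arrays lowest (-3.54 and -3.08, adjusted p = 1.27e-11).

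Of 26 interferon and antigen presentation genes, 9 were higher and 8 lower, or 6 and 4 with the line block. The immunoproteasome and peptide transport genes Psmb9 (-2.19 and -2.32, adjusted p = 2.96e-11), Psmb8 (-1.62 and -2.57) and Tap1 (-1.19 and -2.06), neighbours on chromosome 17, were lower, although Tap1 was not called when its probe sets were averaged (adjusted p = 0.395). Gbp2b was at 1539, 1520 and 1619 in haploid EpiSC-1, 21.6, 17.4 and 15.1 in diploid EpiSC-1 and 24.8, 3.67 and 22.4 in diploid EpiSC-2, and Ifitm1, a membrane protein gene that is also expressed in early embryos, was higher by 2.78 and 1.84. Psmb9 was at 195, 209 and 216 in haploid EpiSC-1, 925, 957 and 939 in diploid EpiSC-1 and 1069, 1015 and 1020 in diploid EpiSC-2, so that within this list the haploid line was the highest for some genes and the lowest for others.

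Whole chromosomes were compared by the median difference of their genes. Over all tested genes the medians were 0.0056 and 0.034, with 26.9% of genes higher and 25.7% lower. Chromosome 13 lay lowest: of 388 genes, 51 were higher and 212 lower, with medians of -0.49 and -0.53. Chromosome 11 followed, with 122 of 925 higher and 390 lower and medians of -0.33 and -0.20. Chromosomes 6 and 19 lay highest. On chromosome 6, 246 of 538 genes were higher and 71 lower, with medians of 0.31 and 0.27. On chromosome 19, 150 of 385 were higher and 53 lower, with medians of 0.19 and 0.32, so that it lay above chromosome 6 against diploid EpiSC-2 and below it against diploid EpiSC-1. The differences between the diploid lines on chromosomes 13, 11, 6 and 19 had medians of 0.016, -0.12, 0.055 and -0.0997. With arrays centred on their medians, 32 genes were higher and 269 lower on chromosome 13, and 71 and 541 on chromosome 11. On chromosome 6 they were 162 and 137 and on chromosome 19, 93 and 94, beside 1801 and 4487 over all genes. Copy number was not measured.

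The lowest genes on chromosome 13 included Emb, the gene of the adhesion molecule embigin (-3.17 and -2.33, adjusted p = 4.07e-13), the zinc finger gene Zfp874a (-4.85 and -4.64, adjusted p = 6.03e-06) and Ocln. Emb was at 915, 916 and 869 in haploid EpiSC-1, 8197, 7917 and 8227 in diploid EpiSC-1 and 4444, 4453 and 4634 in diploid EpiSC-2, and its haploid arrays were all lower. Tgfbi on the same chromosome was far higher, so not each gene of the chromosome was lower. On the X chromosome 124 of 372 genes (33.3%) were higher and 83 (22.3%) lower, with medians of 0.16 and 0.13. With arrays centred on their medians 83 were higher and 130 lower, and the X medians were -0.084 and -0.16. Xist, the RNA that coats an inactive X, was at 43.4, 39.6 and 35.3 in haploid EpiSC-1, 58.4, 61.9 and 50.1 in diploid EpiSC-1 and 11996, 10036 and 12642 in diploid EpiSC-2. It was near the background in haploid EpiSC-1 and in diploid EpiSC-1 and high in diploid EpiSC-2 alone, and its call against both (-0.52 and -8.19, adjusted p = 0.00256) was lost with the line block (adjusted p = 0.113) and with averaged probe sets (0.707).

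**Figure D5:**
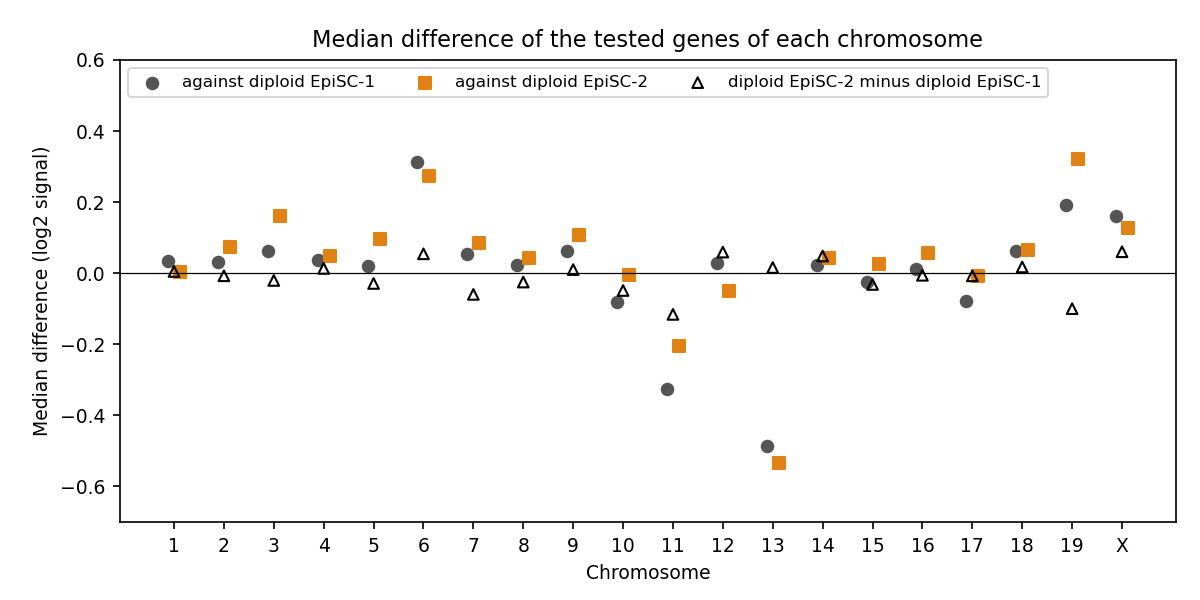
Median difference in log2 signal of the tested genes of each chromosome, for haploid EpiSC-1 minus diploid EpiSC-1 (grey circles), haploid EpiSC-1 minus diploid EpiSC-2 (orange squares) and diploid EpiSC-2 minus diploid EpiSC-1 (open triangles). Chromosomes 13 and 11 lie lowest and 6 and 19 highest against both diploid lines, while the triangles stay between -0.12 and 0.06.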

How the data were processed

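The authors deposited 1 table of MAS5 signals (linear array intensities, per the submitters' processing notes) from Affymetrix mouse 430 2.0 arrays. The MAS5 settings are not given in the sources used here. Each array had a mean signal of 500 after its top and bottom 2% of probe sets were trimmed, and no value was at or below 0. Arrays have no read depth, and their number, 3 a line, limits the precision.

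Of 45101 probe sets, 64 controls were dropped. In the platform annotation, 34945 of the rest had 1 gene symbol, 932 several and 9160 none, and those with several or none were left out. Entrez identifiers matched the GRCm38.p6 gene table for 34741. The brightest probe set over the 9 arrays represented each of 18194 genes. Those with a mean log2 of at least 5.98, the median over probe sets, were tested, 11095 in all.

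Log2 signals without a pseudocount were fitted with limma 3.58.1 (R 4.3.3) as 3 line means, with moderated variances (empirical Bayes) that follow a trend in intensity. Tests were two-sided. Called genes had a Benjamini-Hochberg adjusted p under 0.05 against both diploid lines with 1 sign. The fit was tested on simulated data. Lists were described by counts and medians, with no set test. Of 787 genes in 30 lists, 730 were on the array and 600 were tested. Zim1 stood in both imprinted lists, untested. The members, lists and rules were chosen with earlier results of these data known. Genes were named by rank of the nearer difference after 32 was added to each signal: the 15 highest and 15 lowest, up to 4 in each direction per list, 3 on each of the 3 chromosomes farthest from the median, the 3 largest opposite-signed pairs and 16 fixed genes. Genes below the filter and list members outside that rule were chosen after their values were seen.

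Same-numbered replicates deviated together only weakly, with correlations from 0.00057 to 0.093 (0 of 9 above 0.1). Replicates of other numbers ranged from -0.075 to 0.027. The replicates were not paired in the main fit. The alternatives were median centring, quantile normalization, a pseudocount of 32, no filter and a stricter one, the mean of a gene's probe sets, no trend, the replicate number or the line (statmod 1.5.0) as a block, and leaving out each array.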

Additional observations from a re-analysis of the deposited data

Results flagged for a closer look

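Haploid EpiSC-1 differed from the diploid lines in opposite directions in 545 genes (4.91%), called against each line. The 3 largest such pairs are given here. Acot1, an acyl-CoA thioesterase gene, was at 201, 197 and 229 in haploid EpiSC-1, 33.5, 46.7 and 5.65 in diploid EpiSC-1 and 598, 625 and 571 in diploid EpiSC-2. The haploid line was higher than diploid EpiSC-1 by 3.33 and at -1.52 against diploid EpiSC-2. Car4, a carbonic anhydrase gene, was at 409, 406 and 401 in haploid EpiSC-1, 1917, 1858 and 1924 in diploid EpiSC-1 and 120.2, 170.5 and 157 in diploid EpiSC-2, which gave -2.23 and 1.46. Plaur, the urokinase receptor gene, was at 468, 533 and 535 in haploid EpiSC-1, 131, 209 and 247 in diploid EpiSC-1 and 1284, 1417 and 1214 in diploid EpiSC-2, which gave 1.43 and -1.35. In each of these the haploid arrays lay between the diploid lines without overlap, and both differences passed the threshold in limma (larger adjusted p = 0.0264, 1.17e-07 and 1.76e-05). The fit with the line as a random block has 1 contrast, haploid EpiSC-1 against both diploid lines together. Opposite differences cancel in that contrast, so it cannot test these pairs. Its adjusted p was 0.77 for Acot1, 0.815 for Car4 and 0.978 for Plaur. Acot1 missed the threshold without the intensity trend (0.0712). The same held, singly, without replicate 1 or 2 of haploid EpiSC-1 (0.0593 and 0.0601) or any replicate of diploid EpiSC-2 (0.0525 to 0.0613).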

How the results depend on the processing

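The number of genes higher than both diploid lines was 2988, and it was 1801 with arrays centred on their medians, 1735 with a stricter filter on signal (6946 genes tested) and 1473 with the line as a random block. The number lower was 2848, and it was 4487 with centring and 1339 with the line block. At least 2-fold higher genes were 850, and 268 with the stricter filter. At least 2-fold lower genes were 460, and 214 with the stricter filter and 807 with centring. Leaving out single arrays gave 2771 to 2913 higher and 2662 to 2777 lower genes, 842 to 866 and 454 to 475 at least 2-fold, and 5515 to 6094 between the diploid lines. With the replicate number as a block, 3033 were higher and 2912 lower, which changed no count by 1.5 times. Quantile normalization gave 2604 higher (44.2% of calls) and 3281 lower.

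Of 196 called genes named by rule, 152 kept their call under every alternative in which they were tested, 31 lost it with the line block and 33 under another setting. Signs turned for 9 of them, and the cause was not tested. With the mean of a gene's probe sets the nearer difference was -0.14 for Msi1, -0.0662 for Casp6, 0.36 for Cenpf, 0.10 for Srf, -0.0266 for Ube3a and 0.0464 for Trim28. With centring it was -0.0918 for F11r, -0.0856 for Ttk, -0.0691 for Gnas and -0.0848 for Ube3a, and with quantile normalization 0.0163 for Trim28. Detection calls were not used here, so signals near the background set no firm fold.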
